A study of Homo sapiens with 24 samples.

Results

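Ribosome footprints of K562 cells carrying a guide against DDX3X were compared between day 3 and day 0 of CRISPR interference. The members are 4 of the 24 libraries of the study, chosen by guide, assay and day as the labels give them: 2 sgDDX3 footprint libraries of day 3 and 2 of day 0. K562 is an established human chronic myeloid leukaemia line with erythroid character, and in CRISPR interference a catalytically dead Cas9 represses the start of the gene that a guide RNA targets. The labels name doxycycline at 50 ng/ml for all groups, call day 0 the initial time point, and do not state whether the day 0 cells had received the drug. Set beside the sgDDX3 libraries were footprints of the control guide sgGal4 (2 libraries of day 3 and 2 of day 0) and RNA-seq of the sgDDX3 cells (2 libraries of day 3 and 2 of day 0). RNA-seq of the sgGal4 cells (2 libraries of day 3 and 2 of day 0) was used where footprint changes relative to RNA were compared between the guides. The labels do not say whether the 2 libraries of a group came from separate cultures, so the p-values measure the spread between these libraries, which may be technical.

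DDX3X is an ATP-dependent DEAD-box RNA helicase that helps ribosomes to initiate on mRNAs with structured leaders, and its gene lies on the X chromosome. In ribosome profiling, RNase destroys all mRNA outside the ribosome, and the fragments left inside it are counted per gene. A footprint count therefore follows both the amount of an mRNA and how densely ribosomes sit on it. Setting the footprint change against the RNA change gives translational efficiency, a per-gene ratio that rises when an mRNA carries more ribosomes per copy.

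The sgDDX3 footprint libraries held 6223963 and 7419868 counts at day 3, and 6744727 and 10271595 counts at day 0. Values below are CPM (counts per 1000000 counts) after TMM scaling, and changes are log2 of day 3 over day 0 with their standard error (SE). The 2 day 3 libraries differed from each other more than the 2 day 0 libraries did, with a chi-square per degree of freedom of 12.03 at day 3, against 4.167 at day 0. Spliceosomal small nuclear RNAs U1 to U6, copies included, took 16.6% and 13.7% of the counts at day 3, and 12.6% and 13.1% at day 0. All 16 erythroid markers were counted in each library. Their sum was 2304 and 2317 CPM at day 3, against 2418 and 2439 CPM at day 0. GATA1, the erythroid transcription factor, had 255.3 and 234.8 CPM at day 3, against 273.4 and 263.3 CPM at day 0. HBG1 was the lowest, at 1.01 and 0.81 CPM at day 3, against 0.61 and 0.59 CPM at day 0. Of the 15 that could be tested, HBZ rose and KLF1 fell, beside 3.73% higher and 3.83% lower over all genes. Neither call held in every fit that left out a library. Of the markers of other cell types, 6 of 12 myeloid, 6 of 12 lymphoid, 4 of 12 megakaryocytic and 3 of 10 epithelial or fibroblast genes could be tested. CD3E rose and NKG7 fell, calls that were lost in 4 and 3 of the 4 fits that left out a library, and no other one passed. The summed myeloid markers reached 104.9 and 79.2 CPM at day 3, against 95.0 and 85.0 CPM at day 0, and the summed lymphoid markers reached 55.2 and 46.9 CPM at day 3, against 63.6 and 62.9 CPM at day 0. The summed megakaryocytic markers reached 19.2 and 19.1 CPM at day 3, against 21.9 and 22.3 CPM at day 0, and S100A9, GP1BB and PPBP had no count in any of the 4 libraries. The summed epithelial and fibroblast markers reached 42.4 and 37.7 CPM at day 3, against 38.1 and 43.8 CPM at day 0. The part of these levels in the results was not tested.

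The promoters of 5 genes are shown because these genes carry the main results. DDX3X is the targeted gene, and ODC1 had the next lowest footprint change among the protein-coding genes that met the rule for named genes. RRM2 and TYMS make DNA precursors, and H2BC11 is a histone gene of the group that fell most widely. These 5 were chosen after their values were seen. Each line gives the 250 bases before the transcription start from RefSeq (GRCh38.p14), on the gene's own strand.
DDX3X, chrX:41333058-41333307, plus strand: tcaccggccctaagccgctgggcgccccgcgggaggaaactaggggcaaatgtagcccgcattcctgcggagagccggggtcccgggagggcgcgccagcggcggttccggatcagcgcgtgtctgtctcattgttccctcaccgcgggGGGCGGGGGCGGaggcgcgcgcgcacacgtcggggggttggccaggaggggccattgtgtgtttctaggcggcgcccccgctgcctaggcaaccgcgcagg
ODC1, chr2:10448328-10448577, minus strand: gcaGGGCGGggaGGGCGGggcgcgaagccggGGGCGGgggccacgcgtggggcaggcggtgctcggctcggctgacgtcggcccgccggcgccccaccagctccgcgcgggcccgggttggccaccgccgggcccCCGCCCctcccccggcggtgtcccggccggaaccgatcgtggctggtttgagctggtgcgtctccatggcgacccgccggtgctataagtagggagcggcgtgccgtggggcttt
RRM2, chr2:10122489-10122738, plus strand: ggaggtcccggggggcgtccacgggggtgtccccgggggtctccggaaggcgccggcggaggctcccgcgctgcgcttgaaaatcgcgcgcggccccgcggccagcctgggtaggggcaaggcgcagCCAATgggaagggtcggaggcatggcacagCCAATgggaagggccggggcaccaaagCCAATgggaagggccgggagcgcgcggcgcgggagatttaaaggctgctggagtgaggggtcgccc
TYMS, chr18:657403-657652, plus strand: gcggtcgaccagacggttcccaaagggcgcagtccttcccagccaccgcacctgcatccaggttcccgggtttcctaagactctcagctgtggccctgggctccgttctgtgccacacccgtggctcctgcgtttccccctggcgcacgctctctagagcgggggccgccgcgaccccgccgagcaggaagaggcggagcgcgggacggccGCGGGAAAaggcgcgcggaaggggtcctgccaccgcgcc
H2BC11, chr6:27132796-27133045, minus strand: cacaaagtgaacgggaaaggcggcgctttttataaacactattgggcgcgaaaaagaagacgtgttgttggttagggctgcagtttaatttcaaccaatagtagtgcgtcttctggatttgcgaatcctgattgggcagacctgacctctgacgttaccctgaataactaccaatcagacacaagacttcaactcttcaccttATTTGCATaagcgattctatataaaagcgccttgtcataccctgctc
The capitals mark GGGCGG or its other strand CCGCCC, the GC box, in DDX3X and ODC1. In RRM2 they mark CCAAT, in TYMS GCGGGAAA, the other strand of the E2F-type motif TTTCCCGC, and in H2BC11 the octamer ATTTGCAT. Each motif was marked only in the genes named for it. H2BC11 also holds CCAAT and its other strand ATTGG, left in lower case, and all 16 H2B promoters hold CCAAT on either strand. A match is a description of these letters and not a bound site.

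DDX3X itself was read first, as the check of the guide. Its footprints were at 29.3 and 38.9 CPM in sgDDX3 cells at day 3, against 134.3 and 148.6 CPM at day 0. The day 3 and day 0 libraries did not overlap, and the day 3 level was 4.15-fold lower, a log2 change of -2.05 (SE 0.12, edgeR adjusted p = 3.03e-06). In sgGal4 cells DDX3X had 140.3 and 142.1 CPM at day 3, against 154.0 and 151.4 CPM at day 0, and it did not pass there (log2 -0.11, adjusted p = 0.684). The difference between the 2 guides' changes passed at log2 -1.93 (SE 0.16, adjusted p = 0.000294). DDX3X RNA was at 39.0 and 33.7 CPM in sgDDX3 cells at day 3, against 175.4 and 185.3 CPM at day 0 (log2 -2.29, SE 0.11, adjusted p = 1.60e-11), so the footprints and the RNA fell by like amounts and its translational efficiency did not pass (log2 0.25, adjusted p = 0.492). At day 14 the sgDDX3 footprints of DDX3X averaged 105.1 ± 5.79 CPM (SD, n = 2), between the levels of day 3 and day 0. Of its 6 tested neighbours on the X chromosome, USP9X did not pass at log2 0.06 (adjusted p = 0.779), nor did MED14 at log2 -0.01. MAOA alone among them passed, at 10.1 and 1.49 CPM at day 3, against 0.77 and 0.98 CPM at day 0, and it lost its call in 3 of the 4 fits that left out 1 of these libraries.

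Across the table, footprints of 737 genes rose (3.73% of the 19780 tested) and those of 757 fell (3.83%) in sgDDX3 cells by day 3, 1494 in all (7.55%). These calls, at a Benjamini-Hochberg adjusted p under 0.05 in edgeR's quasi-likelihood test, are meant below wherever a gene is said to have risen or fallen, and the median change of all genes tested was log2 0.005. The control guide's cells had 250 calls over the same 3 days (1.26%), 139 higher (0.703%) and 111 lower (0.561%), and between 10 and 81 when any 1 of those 4 libraries was left out. Of the 22 genes named below that passed with the control guide, 21 lost that call in at least 1 such fit, and TMTC2 did not. A direct test of the difference between the guides called 24 genes (0.121%), 6 with a higher change in sgDDX3 (0.0303%) and 18 with a lower one (0.091%), beside 2210 genes at an unadjusted p under 0.05. That count of 24 was between 5 and 173 when any 1 of its 8 libraries was left out. The count of sgDDX3 calls depended on which libraries were kept: it was 393 without day 0 replicate 1, 350 without day 0 replicate 2, 885 without day 3 replicate 1 and 1324 without day 3 replicate 2. In these fits the lone library left in a group is assumed to vary like the other groups.

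Among the 12 protein-coding genes with the lowest log2 changes by the rule for named genes, which takes only genes whose 2 days do not overlap, ODC1 stood next to DDX3X. ODC1 encodes ornithine decarboxylase, the rate-limiting enzyme of polyamine synthesis, at chromosome 2, 10439968 to 10448327. Its footprints were at 65.8 and 56.7 CPM in sgDDX3 cells at day 3, against 156.1 and 144.5 CPM at day 0. Both day 3 libraries lay far below both day 0 libraries, a log2 change of -1.30 (SE 0.11, adjusted p = 4.27e-05). ODC1 RNA was at 258.7 and 257.9 CPM at day 3, against 267.3 and 264.6 CPM at day 0, and did not pass (log2 -0.04, adjusted p = 0.757), so that its translational efficiency fell (log2 -1.26, SE 0.13, adjusted p = 9.01e-07). With the control guide ODC1 footprints went the other way without passing, at 201.3 and 211.2 CPM at day 3, against 175.4 and 161.5 CPM at day 0 (log2 0.29, adjusted p = 0.174). The guides' changes differed by log2 -1.59 (SE 0.15, adjusted p = 0.000423). At day 14 the sgDDX3 level was 106.2 and 92.9 CPM.

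EPN1, NT5DC2, PRKACA, PPP1R14B and ZDHHC12 fell in footprints while their RNA was higher or did not pass. EPN1, an endocytic clathrin adaptor, had footprints of 26.6 and 21.4 CPM in sgDDX3 cells at day 3, against 56.4 and 48.2 CPM at day 0 (log2 -1.12, SE 0.13, adjusted p = 0.000422). Its RNA rose, at 214.9 and 223.2 CPM at day 3, against 183.2 and 171.3 CPM at day 0 (log2 0.30, adjusted p = 0.00798). NT5DC2, a gene of the 5'-nucleotidase domain family, showed the same opposition more widely: its footprints were at 24.4 and 25.1 CPM at day 3, against 53.3 and 51.6 CPM at day 0 (log2 -1.08, SE 0.11, adjusted p = 0.000175). NT5DC2 RNA was at 179.3 and 198.9 CPM at day 3, against 109.8 and 105.1 CPM at day 0 (log2 0.81, adjusted p = 4.20e-07), so that its translational efficiency changed by log2 -1.89 (SE 0.14, adjusted p = 1.08e-08). PRKACA, the catalytic subunit of protein kinase A, had footprints of 29.8 and 23.3 CPM at day 3, against 52.7 and 55.6 CPM at day 0 (log2 -1.04, adjusted p = 0.000264), and an RNA change of log2 0.40 (adjusted p = 0.00164). PPP1R14B, an inhibitor of protein phosphatase 1, had footprints of 34.2 and 26.4 CPM at day 3, against 61.4 and 64.1 CPM at day 0 (log2 -1.06, adjusted p = 0.000925), and its RNA did not pass (log2 0.25, adjusted p = 0.130). ZDHHC12, of the palmitoyltransferase family, had footprints of 8.08 and 5.56 CPM at day 3, against 14.9 and 13.6 CPM at day 0 (log2 -1.07, adjusted p = 0.00985), and its RNA did not pass (log2 0.09, adjusted p = 0.587). Its footprint call was lost without day 0 replicate 1, day 0 replicate 2 or day 3 replicate 2 (adjusted p 0.0554 to 0.0753). The first 4 of these genes also differed between the guides, by log2 -1.31 for EPN1, -1.50 for NT5DC2, -1.13 for PRKACA and -1.12 for PPP1R14B. NT5DC2 kept that call whichever of the 8 footprint libraries was left out, and EPN1 lost it in 2, PRKACA in 5 and PPP1R14B in 6 of these fits (adjusted p 0.0512 to 0.188). The RNA call of EPN1 was lost in 1 fit (adjusted p = 0.118).

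Other low genes included RRM2 and TMSB4X, which fell in RNA too. RRM2, the small subunit of ribonucleotide reductase, whose promoter holds CCAAT at 123, 93 and 66 bases before the start, had footprints of 57.8 and 61.7 CPM in sgDDX3 cells at day 3, against 124.1 and 129.3 CPM at day 0. Its log2 change of -1.08 in footprints (SE 0.09, adjusted p = 4.27e-05) stood beside -1.13 in RNA (adjusted p = 1.29e-08). RRM2 fell less with the control guide (log2 -0.43, adjusted p = 0.0359), but the difference between the guides did not pass (log2 -0.66, adjusted p = 0.0698). TMSB4X, thymosin beta 4, which binds actin monomers, had footprints of 173.6 and 169.4 CPM at day 3, against 334.4 and 369.6 CPM at day 0 (log2 -1.04, SE 0.09, adjusted p = 4.27e-05). TMSB4X RNA fell as well (log2 -1.29), and the guides differed (log2 -0.80, adjusted p = 0.0242), a call lost in 6 of the 8 fits without a library. Its pseudogene TMSB4XP2, whose reads the counts may not separate from it, fell too (log2 -1.03), at 61.5 and 60.6 CPM at day 3, against 124.7 and 125.2 CPM at day 0. EGR1, an immediate early zinc-finger transcription factor, had 41.9 and 42.7 CPM at day 3, against 108.0 and 92.7 CPM at day 0 (log2 -1.24, adjusted p = 0.000268), and FEV, an ETS-family transcription factor, had 9.94 and 9.35 CPM at day 3, against 23.0 and 23.7 CPM at day 0 (log2 -1.28, adjusted p = 0.000662). Neither passed with the control guide (log2 -0.43 for EGR1 and -0.48 for FEV). SELPLG, the P-selectin ligand, fell with both guides: it had 23.7 and 19.7 CPM at day 3, against 47.9 and 40.8 CPM at day 0, in sgDDX3 cells (log2 -1.03, adjusted p = 0.00195), and 21.5 and 23.3 CPM at day 3, against 47.3 and 40.1 CPM at day 0, in sgGal4 cells (log2 -0.97, adjusted p = 0.00766). Of the 12, all but ZDHHC12 kept their calls in every fit that left out 1 of the 4 libraries.

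**Figure D1:**
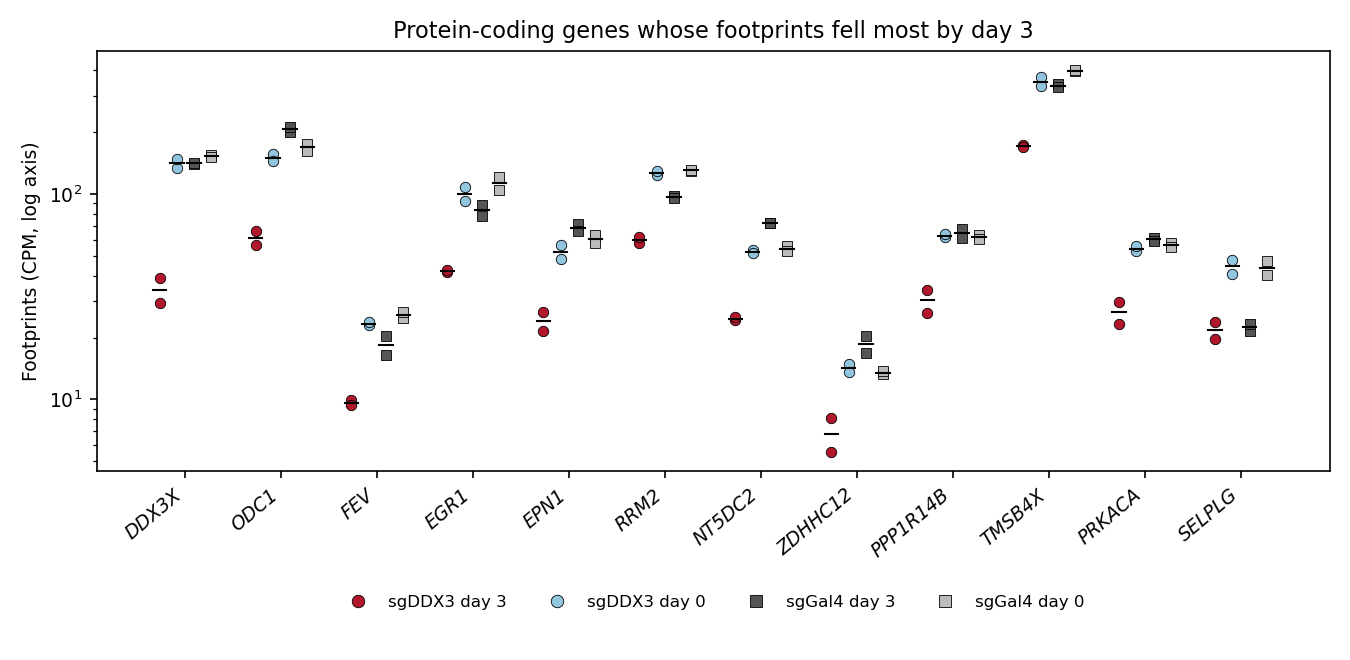
Footprint CPM (log axis) in each library of the 12 protein-coding genes with the lowest log2 changes, in the order sgDDX3 day 3, sgDDX3 day 0, sgGal4 day 3 and sgGal4 day 0, with a dot for each library and a short line at the mean of 2. DDX3X and ODC1 are low in the 2 sgDDX3 day 3 libraries alone, while SELPLG is low at day 3 with both guides.

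The 12 highest protein-coding genes were genes with little or no RNA counted, and most were uneven between the day 3 libraries. TMTC2, which encodes an endoplasmic reticulum membrane protein (chromosome 12, 82686906 to 83134866), had footprints of 186.6 and 185.6 CPM in sgDDX3 cells at day 3, against 4.14 and 2.36 CPM at day 0. Its 2 day 3 libraries were alike and far above day 0 (log2 5.91, SE 0.37, adjusted p = 3.03e-06). The control guide gave the same direction, at 44.0 and 62.8 CPM at day 3, against 1.22 and 1.36 CPM at day 0 (log2 5.34, adjusted p = 5.83e-05), and the difference between the guides did not pass (log2 0.57, adjusted p = 0.827). TMTC2 RNA was at 0.0381 and 0 CPM at day 3, with no count in either day 0 library, which is below the floor of 3 counts. SYT12, of the synaptotagmin family, was also even, at 67.4 and 67.1 CPM at day 3, against 7.81 and 4.53 CPM at day 0 (log2 3.50, adjusted p = 6.00e-05), and rose with the control guide (log2 1.34, adjusted p = 0.0428).

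The other 10 differed between the day 3 libraries. GALNT14, an enzyme that starts mucin-type O-glycosylation, had 209.1 and 54.5 CPM at day 3, against 8.27 and 6.69 CPM at day 0 (log2 4.15, adjusted p = 0.00298). PROC, the gene of the anticoagulant protein C, had 98.2 and 21.1 CPM at day 3, against 3.98 and 5.02 CPM at day 0 (log2 3.68, adjusted p = 0.00538). TULP1, a photoreceptor gene, had 288.8 and 45.7 CPM at day 3, against 18.69 and 18.99 CPM at day 0 (log2 3.13, adjusted p = 0.0116). In 9 of the 10 replicate 1 was the higher day 3 library: CHD5, RASL12, BMP8B, KCNN1, MS4A15 and TPBG were likewise higher there, and TMEM200C was higher in replicate 2. TMTC2, SYT12 and MS4A15 kept their calls whichever of the 4 libraries was left out, and the other 9 lost theirs in at least 1 such fit, with adjusted p 0.0548 to 0.324. Of the 12, CHD5, BMP8B, KCNN1, TULP1 and TPBG had enough RNA to be tested, and the highest of these, BMP8B, was at 4.69 and 5.82 CPM in RNA at day 3, against 2.93 and 3.27 CPM at day 0.

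**Figure D2:**
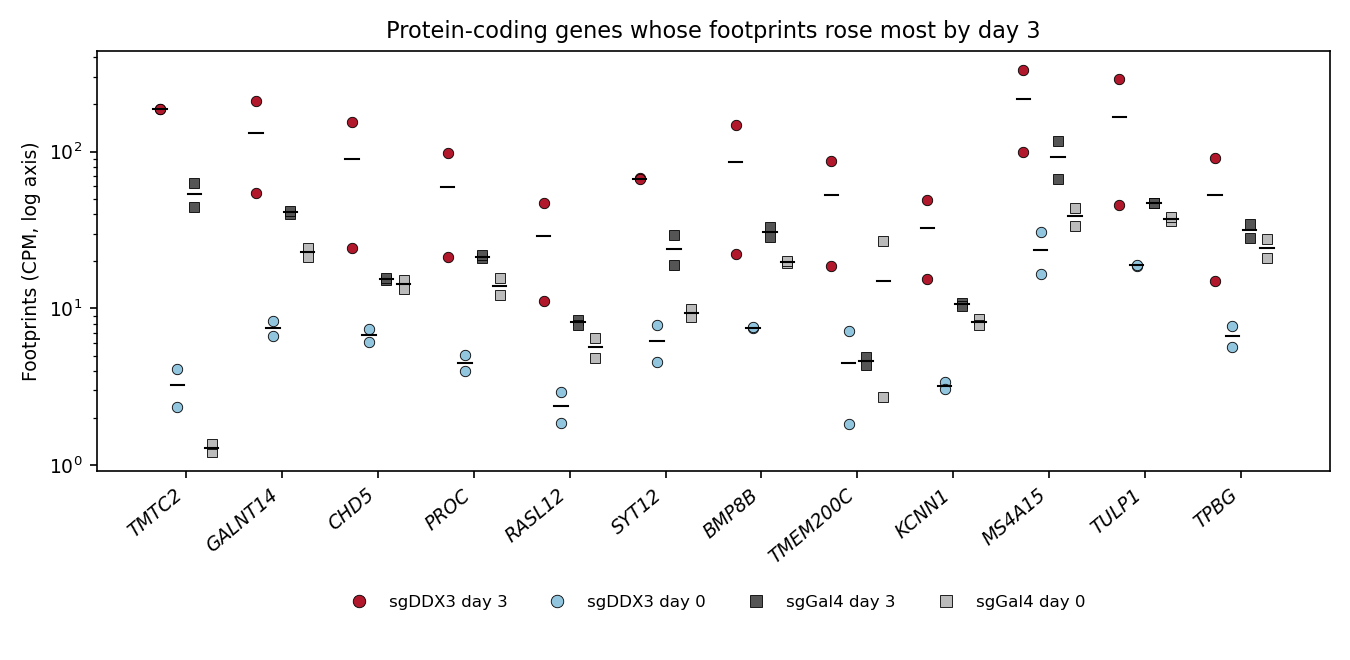
Footprint CPM (log axis) in each library of the 12 protein-coding genes with the highest log2 changes, drawn as in the plot of the genes that fell. TMTC2 and SYT12 have 2 like sgDDX3 day 3 libraries, whereas TULP1, CHD5 and BMP8B have a high and a low one.

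Over all genes that rose, most were not uneven to that extent. Of the 737 genes with higher footprints, 108 (14.7%) had a day 3 replicate 1 level over 2 times that of replicate 2, and 19 the reverse, and the median ratio of replicate 1 to replicate 2 was 1.14. Of the 757 genes that fell, 3 and 7 were uneven in these directions, and of the 18286 that did not pass, 833 and 905. Among the 508 genes that rose and were also tested in RNA, 36 (7.09%) and 6 (1.18%) were. RNA was too low to be tested for 229 of the 737 genes that rose (31.1%), with a median of 0.00953 CPM in RNA, and these 229 had a median footprint change of log2 2.15. For 68 of the 757 genes that fell (8.98%) RNA was too low to be tested.

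Non-coding genes named by the same rule were MIR130AHG, LINC00891 and MIR615 among those that rose, and the pseudogenes MTCO1P23, PPP1R14BP3 and TMSB4XP2 among those that fell. MIR615, the gene of a microRNA at chromosome 12, 54033950 to 54034045, had 52.9 and 24.1 CPM in sgDDX3 cells at day 3, against 8.27 and 7.38 CPM at day 0 (log2 2.29, SE 0.33, adjusted p = 0.00174). With the control guide it had 13.5 and 15.7 CPM at day 3, against 22.29 and 15.98 CPM at day 0 (log2 -0.40, adjusted p = 0.588), and the guides differed by log2 2.69 (adjusted p = 0.0379), a call lost in 6 of the 8 fits without a library. Its mature arms, shown with their seed (bases 2 to 8) in capitals because MIR615 was the microRNA gene that the results named, are given by RefSeq (GRCh38.p14) on the plus strand.
hsa-miR-615-5p, chr12:54033967-54033988: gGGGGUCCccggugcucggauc
hsa-miR-615-3p, chr12:54034010-54034031: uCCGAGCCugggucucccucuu
The deposited counts are per gene and do not separate the arms. MIR130AHG had 47.7 and 6.78 CPM at day 3, against 0.46 and 1.08 CPM at day 0 (log2 4.98, adjusted p = 0.00613), and lost its call without either day 0 library. MTCO1P23 is a nuclear copy of mitochondrial sequence whose reads cannot be told from those of MT-CO1 by these counts. None of the 13 mitochondrially encoded mRNAs passed in sgDDX3 footprints (log2 -0.17 to 0.45). MTCO1P23 had 3.54 and 5.02 CPM at day 3, against 27.6 and 23.6 CPM at day 0 (log2 -2.55, adjusted p = 4.27e-05). It fell with the control guide too, a call lost in every fit without a library (log2 -0.76 to -1.09 in these fits).

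Footprint calls were set beside RNA for the 14853 genes tested in both. Of the 508 genes with higher footprints, 225 rose in RNA, which is 44.3% of the footprint calls and 11.5% of the 1953 RNA calls, and 5 fell in RNA. Of the 689 genes with lower footprints, 336 fell in RNA, which is 48.8% of the footprint calls and 20.5% of the 1639 RNA calls, and 90 rose in RNA. In RNA as a whole, 2023 genes rose (11.1% of 18287) and 1723 fell (9.42%) by day 3, 3746 in all (20.5%). Translational efficiency was lower in 552 genes (3.72% of 14853) and higher in 129 (0.869%), 681 in all (4.58%). Between the guides the efficiency change differed in 268 genes (1.8%), lower in sgDDX3 in 256 (1.72%) and higher in 12 (0.0808%). Efficiency uses the same footprint libraries as the footprint comparison and is no independent measure of it.

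The lowest efficiency changes came from genes whose RNA rose while their footprints were lower or did not pass. ZNF628, a zinc-finger gene, had RNA of 63.6 and 64.9 CPM in sgDDX3 cells at day 3, against 23.6 and 22.3 CPM at day 0 (log2 1.48). Its footprints were at 9.43 and 9.08 CPM at day 3, against 13.9 and 12.9 CPM at day 0, and did not pass (log2 -0.53, adjusted p = 0.0767), giving an efficiency change of log2 -2.01 (adjusted p = 3.15e-07). MAP4K4, a Ste20-family kinase, had footprints of 51.4 and 45.0 CPM at day 3, against 75.2 and 79.0 CPM at day 0 (log2 -0.68), and RNA of 427.3 and 437.8 CPM at day 3, against 207.9 and 225.2 CPM at day 0 (log2 1.00). Its efficiency change was log2 -1.68 (adjusted p = 1.08e-08). STX3, a SNARE protein of membrane fusion, had footprints of 27.5 and 27.1 CPM at day 3, against 52.1 and 58.7 CPM at day 0 (log2 -1.03), and RNA of 192.7 and 196.5 CPM at day 3, against 134.5 and 141.2 CPM at day 0 (log2 0.50). For MAP4K4 and STX3 the days overlapped in neither assay. The other 2 of the 5 lowest were NT5DC2 and AXIN1. The 5 highest in efficiency were CFAP119 (log2 3.12), TPBG (3.10), KCNN1 (2.54), KCTD1 (2.31) and MOK (2.30). MOK, a protein kinase, had footprints of 46.5 and 33.6 CPM at day 3, against 10.1 and 8.17 CPM at day 0, and CFAP119 had 18.5 and 20.7 CPM at day 3, against 3.37 and 6.69 CPM at day 0. MOK and CFAP119 kept their efficiency calls in each fit with a library left out, while TPBG, KCNN1 and KCTD1 lost theirs in 7, 5 and 3 of these fits, with adjusted p 0.0560 to 0.264.

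**Figure D3:**
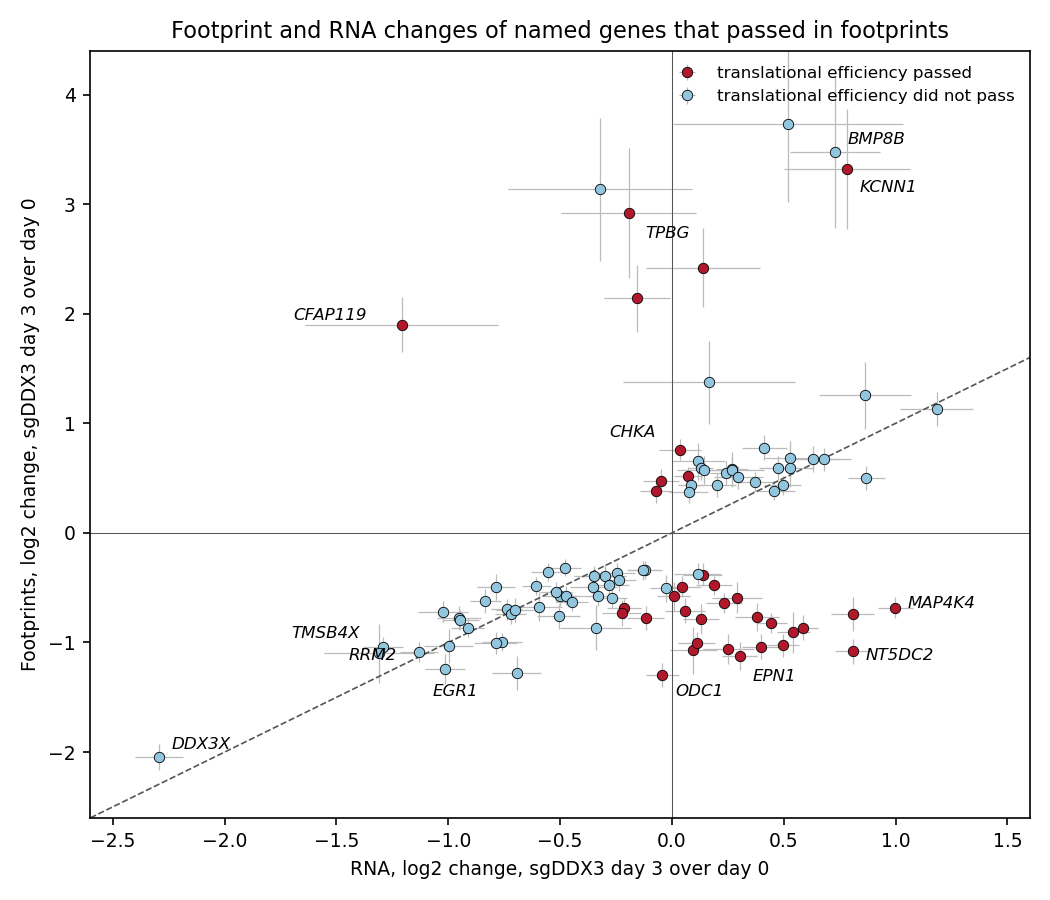
Log2 change in RNA (horizontal) against log2 change in footprints (vertical), sgDDX3 day 3 over day 0, for the named protein-coding genes that passed in footprints and were tested in RNA, with SE bars, red where translational efficiency passed and blue where it did not; the dashed line marks equal change. DDX3X lies near the line at low left, while ODC1, EPN1 and NT5DC2 lie below it at RNA changes near or above 0.

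The guides' changes differed in 24 genes, and DDX3X, ODC1, NT5DC2, EPN1 and AGBL5 were the lowest protein-coding genes by the rule. AGBL5, a tubulin deglutamylase, had 9.09 and 6.91 CPM in sgDDX3 cells at day 3, against 14.6 and 15.2 CPM at day 0, and a difference between the guides of log2 -1.43 (adjusted p = 0.0439). That call was lost in each of 7 fits that left out a library (adjusted p 0.0528 to 0.240). CLDN1, a tight junction protein, and CHKA, choline kinase alpha, were the 2 that met the rule in the other direction. CHKA had 45.5 and 46.6 CPM in sgDDX3 cells at day 3, against 27.1 and 27.4 CPM at day 0, and 30.1 and 29.9 CPM in sgGal4 cells at day 3, against 31.9 and 30.0 CPM at day 0. Its sgDDX3 day 3 libraries stood above the other 6 (difference between the guides log2 0.80, adjusted p = 0.0354). CLDN1 had 248.9 and 152.6 CPM in sgDDX3 cells at day 3, against 73.7 and 59.4 CPM at day 0, with a difference of log2 1.84 (adjusted p = 0.0154) and no RNA counted. Without single libraries CHKA and CLDN1 lost this call in 6 and 5 fits. EIF4EBP2 (log2 -1.25, adjusted p = 0.00356), STX3 (log2 -1.18, adjusted p = 0.00347) and TYMS (log2 -0.76, adjusted p = 0.0168) also passed between the guides, and are named for this comparison after their values were seen. Of all 24 genes, DDX3X, ODC1, NT5DC2, EIF4EBP2 and STX3 kept the call whichever of the 8 libraries was left out, and 19 lost it in at least 1 of these fits.

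Of 36 gene lists, the histone genes had the most members lower. The list holds the replication-dependent histones, whose mRNAs are made in S phase and end in a stem-loop in place of a poly(A) tail. Of 61 members 54 could be tested: 35 fell, none rose, and 19 did not pass, beside 3.83% lower in the whole table. The median change was log2 -0.45 in sgDDX3 cells, with all 54 below 0, against 0.005 for all genes tested. All histone genes together held 36690 and 37470 CPM at day 3, against 51630 and 50340 CPM at day 0. The control guide's cells shifted the same way less far, with a median of -0.27 and 8 members lower, beside 0.561% of all genes there. No histone gene passed the test of the difference between the guides. In RNA of sgDDX3 cells 45 of 47 tested fell (median log2 -0.60), beside 9.42% of all genes. The RNA change of the control guide was not tested alone, for this list or those below. The count of 35 became 12 without day 0 replicate 1, 13 without day 0 replicate 2, 18 without day 3 replicate 1 and 31 without day 3 replicate 2. A smaller share of cells in S phase and less histone mRNA per cell cannot be told apart in bulk samples.

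By class, 4 of 5 linker H1 genes fell (median log2 -0.78), 14 of 16 H2B genes (-0.47), 6 of 9 H3 genes (-0.52), 6 of 11 H2A genes (-0.37) and 5 of 13 H4 genes (-0.34). H1-2, a linker histone, had 2281 and 2462 CPM at day 3, against 4340 and 4292 CPM at day 0 (log2 -0.86, SE 0.09, adjusted p = 0.000175). H3C7 had 951.9 and 944.7 CPM at day 3, against 1576 and 1545 CPM at day 0 (log2 -0.72), and H4C9 had 348.1 and 359.9 CPM at day 3, against 593.0 and 555.5 CPM at day 0 (log2 -0.70). H1-3 had 554.0 and 668.6 CPM at day 3, against 1056 and 1039 CPM at day 0 (log2 -0.78), and fell with the control guide too (log2 -0.77, adjusted p = 0.00631, a call lost in 3 of 4 fits without a library). In all of these the 2 days did not overlap. H2BC11, whose promoter is shown with the octamer starting 47 bases before the start, had 1100 and 1102 CPM at day 3, against 1585 and 1616 CPM at day 0 (log2 -0.54, adjusted p = 0.00499, and 0.0571 without day 0 replicate 2). ATTTGCAT, searched on both strands, is in 13 of 16 H2B promoters (81.2%) and 9 of 33 other histone promoters (27.3%), against 1.66% of 27305 promoters of the same length. Histone paralogs are near-identical in parts, and how the authors' counting split shared reads is not given.

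DNA replication and S phase genes fell alongside, where 3.83% of all genes tested were lower. Of 40 tested 24 fell and none rose (median log2 -0.48, 39 below 0). With the control guide 4 were lower (median -0.22), beside 0.561% of all genes there. In RNA of sgDDX3 cells 34 were lower (median -0.54), beside 9.42% of all genes. TYMS, thymidylate synthase, had 63.8 and 63.0 CPM at day 3, against 126.8 and 125.4 CPM at day 0 (log2 -0.99, SE 0.08, adjusted p = 4.27e-05). PCNA, the sliding clamp of DNA polymerases, had 258.1 and 284.2 CPM at day 3, against 477.6 and 461.1 CPM at day 0 (log2 -0.79), and CDC45, a subunit of the replicative helicase, had 215.4 and 229.7 CPM at day 3, against 384.5 and 361.2 CPM at day 0 (log2 -0.74). The 2 days did not overlap in any of the 3. CDT1, which loads that helicase at origins, changed by log2 -0.81, and TK1, thymidine kinase, by -0.69. E2F1, a transcription factor of S phase genes, was at 6.57 and 5.69 CPM at day 3, against 13.5 and 11.2 CPM at day 0 (log2 -1.004), with its RNA at log2 -0.11 (adjusted p = 0.413) and its efficiency lower (log2 -0.89, adjusted p = 0.00482). Without day 0 replicate 1 its footprint call was lost (adjusted p = 0.06), and without day 3 replicate 2 its efficiency call (adjusted p = 0.0759). MCM2, a subunit of the helicase, did not pass, with uneven day 3 libraries of 26.3 and 63.2 CPM, against 52.7 and 47.0 CPM at day 0. Without single libraries the count of 24 became 12 without day 0 replicate 1, 11 without day 0 replicate 2, 14 without day 3 replicate 1 and 30 without day 3 replicate 2. TTTCCCGC is in 9 of 35 promoters of this list (25.7%), against 1.42% of all and 2.18% of protein-coding genes tested in footprints. CCAAT is in 20 of 35 (57.1%), against 33.0% and 35.3%, and in 41 of 49 histone promoters (83.7%). Among the 22 S phase promoters of genes that fell, 6 hold TTTCCCGC (27.3%) and 12 hold CCAAT (54.5%), near the shares of the whole list. Of the mitosis genes, 6 of 32 fell, among them CCNA2, cyclin A2, at 156.4 and 164.1 CPM at day 3, against 241.3 and 237.8 CPM at day 0 (log2 -0.58), and 1 of the list passed without day 0 replicate 1, as without day 0 replicate 2.

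Metabolic genes fell in part, beside 3.83% lower and 3.73% higher over all genes in sgDDX3 cells. With the control guide 0.561% of all genes were lower. Of 33 cholesterol and lipid synthesis genes 9 fell and none rose (median log2 -0.25), beside 3 lower and a median of -0.29 with the control guide. SQLE, squalene epoxidase of sterol synthesis, had 114.7 and 121.3 CPM at day 3, against 173.1 and 170.3 CPM at day 0 (log2 -0.54, adjusted p = 0.00384), with no overlap. Of 25 glycolysis and hypoxia genes 7 fell and 1 rose (median log2 -0.27), beside 11 lower and a median of -0.32 with the control guide. ALDOC, an aldolase, had 83.4 and 70.6 CPM at day 3, against 155.5 and 152.9 CPM at day 0 (log2 -1.004, adjusted p = 0.000175), and fell with the control guide too (log2 -0.76). ADM, a peptide hormone gene of low level, was the 1 that rose, at 2.19 and 1.49 CPM at day 3, against 0.15 and 0.49 CPM at day 0, and lost its call in 3 of the 4 fits without a library. The 9 cholesterol calls became 4, 3, 7 and 9, and the 7 glycolysis calls 4, 3, 5 and 8, without day 0 replicate 1, day 0 replicate 2, day 3 replicate 1 and day 3 replicate 2 in turn. In polyamine metabolism 2 of 17 genes fell, ODC1 and the spermidine synthase gene SRM (log2 -0.38, adjusted p = 0.0414). None of the 17 passed with the control guide, and SRM lost its sgDDX3 call without any 1 of the 4 libraries.

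Erythroid genes moved in both directions, beside 3.73% higher and 3.83% lower over all genes in sgDDX3 cells. With the control guide these shares were 0.703% and 0.561%. Of 8 globin genes 3 rose (median log2 0.37), beside none with the control guide (median 0.21). HBD, delta globin, had 33.9 and 37.4 CPM at day 3, against 17.3 and 15.5 CPM at day 0 (log2 1.13, adjusted p = 0.00141). HBB and HBZ lost their calls without single libraries. Of 33 erythroid membrane and regulator genes 5 rose and 5 fell, beside none higher and 3 lower with the control guide. ANK1, an ankyrin of the red cell membrane, had 232.4 and 252.5 CPM at day 3, against 127.0 and 139.4 CPM at day 0 (log2 0.86, adjusted p = 0.0203), and lost its call in 3 of the 4 fits without a library. GFI1B, a transcriptional repressor of erythroid cells, had 67.9 and 64.3 CPM at day 3, against 104.8 and 109.6 CPM at day 0 (log2 -0.70). It fell with the control guide too, a call lost in every fit without a library. In sgDDX3 cells the 2 days did not overlap for ANK1 or GFI1B. Without either day 0 library at most 1 gene of this list passed in each direction. Of 11 heme synthesis genes 3 fell, beside 1 higher and 1 lower with the control guide. CPOX, coproporphyrinogen oxidase, was among the 3 (log2 -0.63), with 73.9 and 73.6 CPM at day 3, against 118.1 and 110.2 CPM at day 0. CPOX fell with the control guide too, a call lost in most fits without a library.

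Most lists of translation genes had few or no calls, beside 3.73% higher and 3.83% lower in the whole table. Elongation factors and related mRNAs had more, with 3 of 20 higher and none lower (median log2 -0.05). None of the 20 passed with the control guide. Among them EEF1A1 and EEF2 lost their calls without either day 0 library. None of 47 large and 32 small ribosomal subunit genes rose or fell (medians log2 0.01 and 0.04), and none of 13 mitochondrially encoded mRNAs did. Of 40 initiation factor genes 2 rose and 2 fell. Without day 0 replicate 1 these counts were 1 and 1, without day 0 replicate 2 they were 0 and 1, without day 3 replicate 1 they were 3 and 1, and without day 3 replicate 2 they did not change. EIF4EBP2, a repressor of the cap-binding protein, had 21.2 and 19.4 CPM at day 3, against 38.9 and 35.1 CPM at day 0 (log2 -0.86, adjusted p = 0.000943), with its RNA higher (log2 0.59) and its efficiency lower (log2 -1.45). EIF4G2, a translation factor related to eIF4G, had 472.0 and 488.4 CPM at day 3, against 340.8 and 329.2 CPM at day 0 (log2 0.52), and lost its call in 1 fit without a library (adjusted p = 0.0544). Of 43 DEAD-box and DEAH-box helicases other than DDX3X, DHX57 rose, a call lost in 3 of 4 fits without a library, and none fell. In sgGal4 cells 8 of 31 genes of the integrated stress response rose (median log2 0.28), beside 0.703% of all genes there. In sgDDX3 cells 2 of the 31 rose (median log2 -0.004), and none passed the test of the difference between the guides. The 2 became 0, 0, 0 and 3 without day 0 replicate 1, day 0 replicate 2, day 3 replicate 1 and day 3 replicate 2 in turn, and PHGDH, the first enzyme of serine synthesis, lost its sgGal4 call in all 4 fits without a library.

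Wnt pathway genes, a pathway in which DDX3X is known as a regulator of casein kinase 1, fell in 3 of 22 cases and rose in none (median log2 -0.08), beside 3.83% lower over all genes. The 3 became 1, 1, 4 and 1 without day 0 replicate 1, day 0 replicate 2, day 3 replicate 1 and day 3 replicate 2 in turn. In RNA the list had 8 higher and none lower, beside 11.1% higher over all genes, and in translational efficiency none higher and 7 lower, beside 3.72% lower. DVL2, a Dishevelled scaffold of Wnt receptors, had footprints of 23.6 and 25.5 CPM at day 3, against 44.9 and 39.0 CPM at day 0 (log2 -0.76, adjusted p = 0.00364), with RNA at log2 0.38 (a call lost in 2 fits without a library) and efficiency at log2 -1.14. AXIN1, a scaffold of the beta-catenin destruction complex, had footprints of 12.8 and 10.6 CPM at day 3, against 20.2 and 18.7 CPM at day 0 (log2 -0.74, adjusted p = 0.0122), and RNA of 93.4 and 111.3 CPM at day 3, against 58.5 and 57.6 CPM at day 0 (log2 0.81). The footprint call of AXIN1 was lost in 3 of the 4 fits without a library (adjusted p 0.0624 to 0.0853), and so was that of FZD5, a receptor (log2 -0.58). DVL1 did not pass in footprints (log2 -0.23, adjusted p = 0.339), while its RNA rose (log2 0.83) and its efficiency fell (log2 -1.06).

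Some chaperone genes rose and some immediate early genes fell. Of 22 endoplasmic reticulum chaperone genes 3 rose and none fell (median log2 0.17), beside 3.73% higher in the whole table, and the 3 became 1, 0, 1 and 4 without day 0 replicate 1, day 0 replicate 2, day 3 replicate 1 and day 3 replicate 2 in turn. HSPA5, the chaperone BiP, had 523.4 and 564.9 CPM at day 3, against 358.3 and 363.1 CPM at day 0 (log2 0.59, adjusted p = 0.00520), and lost its call without either day 0 library (adjusted p 0.0605 and 0.0564). HSPA1A and HSPA1B, near-identical heat shock genes that the counts may split, were the 2 of 27 heat shock genes that rose, beside 3.73% over all genes. HSPA1A had 85.9 and 95.4 CPM at day 3, against 56.4 and 57.3 CPM at day 0. Of 25 immediate early genes 5 fell, EGR1, JUND, MYC, FOSL1 and IER2, beside 3.83% lower over all genes, and DUSP2 rose. MYC, the growth transcription factor, had 404.0 and 424.7 CPM at day 3, against 568.8 and 548.1 CPM at day 0 (log2 -0.43, adjusted p = 0.0237), and lost its call in 3 of the 4 fits without a library. The 5 lower became 1 without day 0 replicate 1, and 2, 2 and 3 without day 0 replicate 2, day 3 replicate 1 and day 3 replicate 2.

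**Figure D4:**
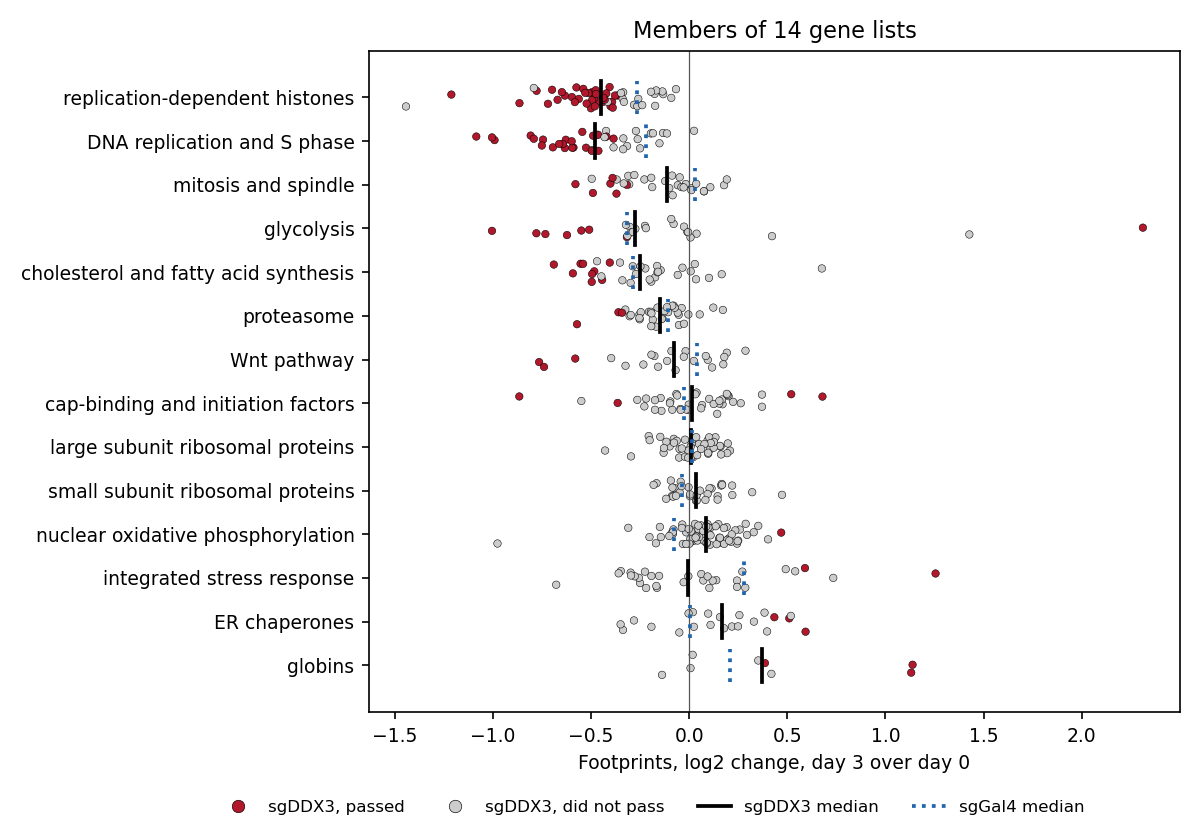
Log2 change in footprints, sgDDX3 day 3 over day 0, of the tested members of 14 gene lists, red where the gene passed and grey where it did not, with the sgDDX3 median as a black bar and the sgGal4 median as a blue dotted bar. Histones and S phase genes lie below 0 with the sgDDX3 bar under the sgGal4 bar, and ribosomal protein genes lie around 0.

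Genes with lower translational efficiency had starts richer in G and C. Over the first 50 transcribed bases from RefSeq, the median G and C share was 76% in the genes with lower efficiency, 68% in those that did not pass and 64% in those with higher efficiency, from the 429 of 523, 8908 of 10811 and 89 of 100 protein-coding genes that matched a sequence. Efficiency was lower in 4% of the 500 genes under 50% G and C, 2.15% of 1487 at 50 to 60%, 1.59% of 3277 at 60 to 70%, 5.66% of 3110 at 70 to 80% and 14.2% of 1052 at 80% or more. The highest class thus held the largest share in this fit, and its share was between 9.98% and 16.4% over the alternative settings, against 0.915% to 1.98% in the class at 60 to 70%. Its median efficiency change was log2 -0.18, made of an RNA median of log2 0.19 and a footprint median of log2 -0.02. The RNA medians were below 0 in the 3 lower classes and above 0 in the 2 higher ones, while the footprint medians stayed within log2 0.02 of 0. Efficiency and RNA share their RNA libraries. Among the genes named, ODC1, STX3, AXIN1, MAP4K4 and DVL2 have 80% G and C in these 50 bases, DDX3X 76%, ZNF628 68%, NT5DC2 62% and H1-2 48%. ZNF628 has the lowest efficiency change of the named genes, and KCNN1, among the 5 highest, has 88%. The other 4 of the 5 highest have 64% (MOK), 58% (CFAP119 and KCTD1) and 54% (TPBG). GGGCGG, on either strand of the 250 bases before the start, is in 77.2% of 429 genes with lower efficiency, against 68.4% of 10058 protein-coding genes tested in footprints. ODC1, whose promoter is shown, holds it at 4 places and DDX3X at 2.

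**Figure D5:**
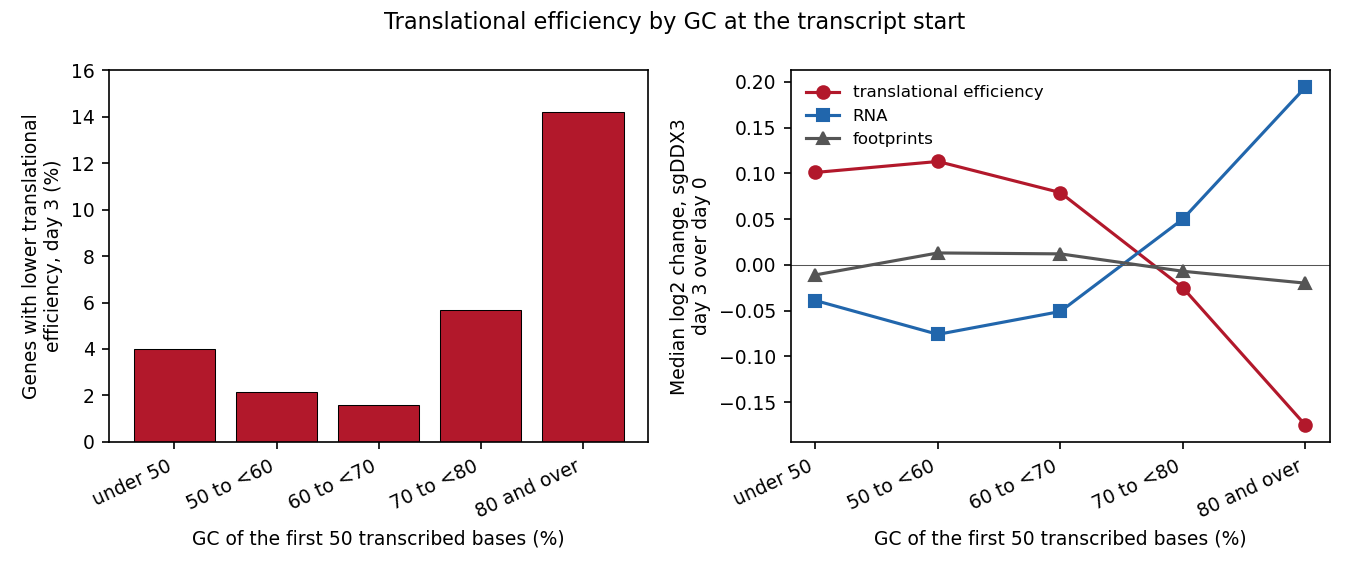
Left, percent of genes with lower translational efficiency in sgDDX3 at day 3 over day 0, by the G and C percentage of the first 50 transcribed bases in 5 classes. Right, the median log2 change of efficiency, RNA and footprints per class: the highest class holds 14.2% lower genes and an RNA median of 0.19 beside a footprint median of -0.02.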

How the data were processed

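Ribosome footprints and RNA of cytosolic lysates were sequenced by the authors, with cycloheximide, RNase I and sizing columns for the footprints, per the labels' protocols. The submitters' processing notes name cutadapt 3.4, Bowtie2 2.4.1, STAR 2.7.5a, DESeq2 and GRCh38. How reads were counted (tool, annotation, strand, reads matching several genes) is not given in the sources used here. The authors deposited raw counts per gene, 1 table for each assay, with 58037 genes. After 45 pseudoautosomal Y rows were left out (37711 footprint counts and 126911 RNA counts), 57992 genes remained, 41445 with a symbol. All columns were mapped to samples. Overlapping genes and near-identical copies cannot be told apart in these counts.

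Libraries were grouped by guide, day and assay from the labels. Counts were fitted with edgeR 4.0.16 in R 4.3.3 (limma 3.58.1): TMM scaling, filterByExpr with a minimum count of 10, and quasi-likelihood tests with Benjamini-Hochberg adjustment over all genes tested, threshold 0.05. Fits held the 12 libraries of an assay, or all 24 for translational efficiency. DESeq2 1.42.0 was an alternative, beside other scaling, no filter, fewer libraries, a replicate block, and each library left out in turn. A fit on protein-coding genes alone was added after seeing the data. The code was tested on simulated data. The whole range of library depth was 6223963 to 15240512 counts for footprints and 10266619 to 43256563 for RNA, and the biological coefficient of variation was 9.99% for footprints, 6.13% for RNA and 7.08% for both assays in 1 fit. The floor of 3 counts covers counting error only.

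Named genes were DDX3X; the 12 highest and 12 lowest protein-coding and 3 highest and 3 lowest non-coding genes that passed, carried a symbol, averaged 10 CPM or more over the libraries compared and had no overlap between groups; the 5 highest and 5 lowest by that rule for the difference between the guides and for efficiency; and, from each gene list, at most the 4 members of smallest p that passed. Non-overlap for the last 2 measures used ratios within a replicate number, which is arbitrary. ADM, ANK1, CDT1, DVL1, E2F1, H2BC11, IER2, MCM2, MYC and TK1 were named after their values were seen. The comparison and the gene lists were chosen with earlier results of these data known. Sequences came from RefSeq tables (GRCh38.p14). Figures used matplotlib 3.10.9 and tables pandas 2.3.3 in Python 3.11.15. A gene that met the rule is not reported here.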

Additional observations from a re-analysis of the deposited data

Results flagged for a closer look

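For the genes below, the change from day 0 to day 3 differed between sgDDX3 and sgGal4 footprints in edgeR's test of that difference (adjusted p under 0.05). Negative values mean a lower change in sgDDX3. The difference was log2 -1.93 for DDX3X, -1.59 for ODC1, -1.50 for NT5DC2, -1.43 for AGBL5 and -1.31 for EPN1. It was -1.25 for EIF4EBP2, -1.18 for STX3, -1.13 for PRKACA, -1.12 for PPP1R14B, -1.09 for IFRD1 and -1.09 for NOTUM, the gene of a secreted enzyme that inactivates Wnt ligands. It was -0.95 for TMSB4XP2, -0.91 for SLC35B2, -0.90 for GTF3A, -0.89 for MAPKAPK2, -0.80 for TMSB4X, -0.76 for TYMS and -0.69 for ABCB10. In the other direction it was 2.69 for MIR615, 1.84 for CLDN1, 1.40 for RNU4-82P, 1.22 for LINC01145, 1.01 for LINC02591 and 0.80 for CHKA. RNU4-82P, a copy of U4 small nuclear RNA whose reads the counts may not separate from its relatives, changed by log2 0.76 in sgDDX3 cells and by -0.65 in sgGal4 cells.

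The change in translational efficiency also differed between the guides, at log2 -2.01 for ZNF628, -1.98 for NT5DC2, -1.79 for AXIN1, -1.76 for MAP4K4 and -1.66 for STX3. Their footprints and RNA in sgDDX3 cells are given above, and those in sgGal4 cells are not given.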

How the results depend on the processing

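The 1494 calls in sgDDX3 footprints became 484 with only the 4 libraries of the comparison in the fit, and 350 to 1324 with 1 library left out. Of them 49.3% were higher, but 35.1% without day 0 replicate 2 and 59.1% without day 3 replicate 2. The 250 calls of sgGal4 became 963 without a low-count filter, 1204 with only its libraries, and 10 to 81 with 1 left out. The 24 genes that differed between the guides became 643 without a filter, 112 with DESeq2, 81 with only the libraries of the comparison, 107 with protein-coding genes only, and 5 to 173 with 1 library left out. The cause of these moves was not tested. With 1 library left out, RNA calls were 2091 to 2974, efficiency calls 384 to 769 and efficiency differences between the guides 147 to 383. Of the 115 genes whose sgDDX3 footprint change was refitted under each alternative, 70 lost a call under at least 1, and none changed sign under any. The labels tie no replicate number to a shared culture or day. Within each group, replicate 2 was subtracted from replicate 1 for each gene on a log2 scale. Between pairs of groups within an assay, these differences correlated at -0.306 to 0.274 (0.0962 for sgDDX3 day 3 and day 0 footprints). The replicate numbers were thus not taken to pair libraries. With a replicate block sgDDX3 footprints had 1562 calls (1494 without it), sgGal4 footprints 262 (250), the difference between the guides 25 (24), RNA 3520 (3746), efficiency 701 (681) and its difference between the guides 256 (268). The block took away the calls between the guides of AGBL5 and NOTUM. Coding length was not run because no protein table was used here. The G and C shares of genes with higher footprints are not given, because under 80% of them matched a sequence (77.9% for sgDDX3).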
